A study of Mus musculus with 24 samples.

Results

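The effect of losing Nrl on the mouse retina was compared between postnatal day 2 (P2) and postnatal day 10 (P10). For every probe set, the knockout minus wild-type difference at P2 was subtracted from the same difference at P10. This difference of differences, called the interaction below, rested on 16 of the 24 arrays of the series, with 4 arrays in each of 4 groups chosen by their titles. The groups were Nrl-/- and wild-type (WT) retina at P2 and Nrl-/- and WT retina at P10. The other 8 arrays, both genotypes at 2 months, entered the model through the shared estimate of spread and were read separately at the end.

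All samples were total RNA of whole retina, extracted with Trizol and hybridised to Affymetrix oligonucleotide arrays. Nrl-/- mice carry a germline loss of Nrl. Knockout and control mice were both of mixed R1 and C57BL/6 background. The labels do not say which part of the gene was deleted. Nor do they say whether a replicate is a single mouse or pooled mice, and the p-values therefore reflect no more than the variation among the deposited samples. The values are the authors' intensities, and changes are differences of log2 intensity. A change was called at a Benjamini-Hochberg adjusted p under 0.05 from limma over 12422 probe sets, and a gene was represented by its brightest probe set over the 24 arrays.

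NRL is a leucine zipper transcription factor that directs newly born photoreceptors to the rod fate, and it acts with the homeodomain factor CRX on rod promoters. Rods and cones use paralogous proteins for the same steps of the light response, namely opsin, transducin, phosphodiesterase, cyclic nucleotide-gated channel and arrestin. In the mouse most rods are born around birth and build their outer segments over the following weeks, and retinas without Nrl hold photoreceptors that resemble short-wavelength cones in place of rods.

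Array medians lay between 61.7 and 71.3 and the 25th percentile of intensity between 24.1 and 29.2. Correlations between arrays of one group, across probe sets, lay between 0.983 and 0.997. Knockout P2 replicate 1 had the lowest median. Without it 295 probe sets were called in place of 276, and without both P2 arrays numbered 1 there were 278. The summed intensity of 10 measured lens genes ran from 696 to 1772 in WT P2 retinas, 568 to 3378 in knockout P2, 725 to 1080 in WT P10 and 810 to 2178 in knockout P10. Of those 10 genes 0 were called in the interaction, and 0 had an unadjusted p under 0.05. Xist, transcribed from the inactive X chromosome, read 7.43, 9.35, 96.4 and 126 in WT P2 retinas and 159, 187, 193 and 313 in knockout P2. At P10 it read 73.6, 85.8, 94.7 and 123 in WT and 168, 182, 213 and 287 in knockout retinas. The 4 measured sex-linked genes held 0 calls, and the part of sex in the results was not tested. A processing batch that held 1 of the 4 groups cannot be told apart from the interaction.

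Between P2 and P10 the knockout effect changed from both sides. Rod genes such as Gnat1, Cnga1 and Reep6 climbed in WT retinas far more than without Nrl, and cone genes such as Opn1sw, Gnat2 and Gngt2 climbed in knockout retinas. Of 12422 probe sets 276 were called (2.22%), 147 with a higher (1.18%) and 129 with a lower (1.04%) knockout effect at P10 than at P2. As genes, 224 of 8251 were called (2.71%), of which 126 were higher (1.53%) and 98 lower (1.19%), and 53 had an interaction of at least 2-fold (0.642%). The median interaction over all genes was 0.03. The called genes nearest the threshold were Itpk1 (-0.32) and Lemd2 (0.34), and the nearest genes beyond it were Hif1a (-0.49) and Gab1 (0.49).

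The called genes were then sorted by which genotype changed. A gene was termed wild type-driven where the absolute WT change from P2 to P10 was at least 2 times the knockout change, and knockout-driven in the reverse case. Where neither held, genes were split into those that moved in opposite directions (opposed) and in the same direction. Wild type-driven genes numbered 90 (40.2% of the called genes), knockout-driven genes 78 (34.8%), opposed genes 16 and same-direction genes 40. The 2 main classes leaned opposite ways, with 58 lower and 32 higher genes among the wild type-driven and 10 lower and 68 higher among the knockout-driven. These class counts describe the same values as the interaction and were not tested.

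In all 58 wild type-driven lower genes the WT rise was itself called, with a median WT change of 0.95 and a median knockout change of 0.26. In all 68 knockout-driven higher genes the knockout rise was called, with medians of 0.89 in knockout and 0.05 in WT retinas. Over all genes the WT change was called up in 18.9% and down in 19.8%, and the knockout change up in 20.1% and down in 16.4%. The class rule picks genes with a large change in the driving genotype, so the 58 and 68 calls largely follow from it. The 32 wild type-driven higher genes fell in WT retinas by a median change of -0.66 and had a median knockout change of 0.00. The 10 knockout-driven lower genes fell in knockout retinas, with a median of -0.94 against -0.10 in WT.

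**Figure D1:**
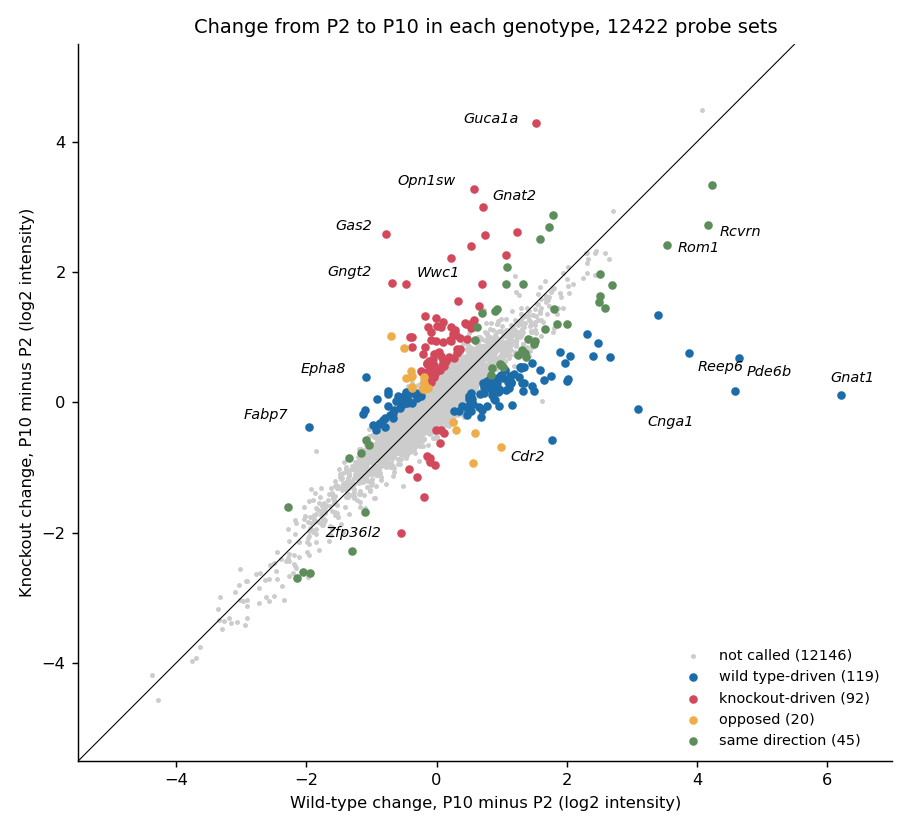
Change in log2 intensity from P2 to P10 in wild-type retinas (horizontal axis) against the change in knockout retinas (vertical axis) for 12422 probe sets, 4 arrays per group. Grey points were not called in the interaction, colours mark the driver class of the 276 called probe sets, the line marks equal change, and rod genes such as Gnat1 lie far below it while Guca1a, Opn1sw and Gas2 lie above it.

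Nrl itself was a wild type-driven gene. Its probe set read 59.9, 60.1, 60.1 and 61.5 in WT P2 retinas and 123, 128, 135 and 156 in WT P10. Knockout retinas gave 45.2, 49.00, 54.5 and 56.4 at P2 and 44.6, 46.7, 51.5 and 56.2 at P10. All 4 knockout values lay below all 4 WT values at each age, and the WT arrays at P10 lay above those at P2 while the knockout ages overlapped. The P2 gap of -0.24 did not pass (adjusted p = 0.3), and whether the probe set lies in the deleted part is not known from the labels. The interaction was -1.20 ± 0.15 (adjusted p = 4.84e-06).

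Gnat1, the alpha subunit of rod transducin, had the lowest interaction of all genes. It read 12.8, 13.1, 15.2 and 25.9 in WT P2 retinas and 725, 1216, 1356 and 1698 in WT P10. In the absence of Nrl it read 10.9, 11.7, 13.5 and 15.6 at P2 and 10.8, 11.7, 12.9 and 23.1 at P10. The WT P10 arrays stood alone, and every array of the other 3 groups read 25.9 or less. Most of those read between 10.8 and 15.6, near the 10th percentile of intensity (11.1 to 12.2 over the 16 arrays). The size of the Gnat1 interaction therefore rests on values near the low end of the scale. The WT change was 6.22 ± 0.35, the knockout change 0.12 ± 0.35 (adjusted p = 0.819) and the interaction -6.10 ± 0.50 (adjusted p = 1.37e-09).

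Pde6b, the beta subunit of rod phosphodiesterase, differed between genotypes before its main rise. WT retinas gave 43.01, 44.03, 45.3 and 51.8 at P2 and 1055, 1158, 1182 and 1197 at P10. Knockout retinas gave 14.2, 18.1, 18.2 and 20.4 at P2 and 24.9, 24.9, 25.97 and 39.5 at P10. The genotypes did not overlap at either age, and the gap grew from -1.38 at P2 to -5.34 at P10, an interaction of -3.96 ± 0.18 (adjusted p = 3.14e-15). A second Pde6b probe set was called the same way, at -1.65.

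Cnga1, the alpha subunit of the rod cyclic nucleotide-gated channel, read 16.6, 17.1, 18.6 and 19.4 in WT P2 retinas and 134, 146, 149 and 187 in WT P10. Knockout values were 15.6, 17.4, 17.6 and 19.3 at P2 and 15.4, 15.4, 16.7 and 17.3 at P10. Both ages of knockout and the WT P2 arrays overlapped in the dim range, and the interaction was -3.20 ± 0.14 (adjusted p = 3.14e-15). Reep6, a protein of the rod endoplasmic reticulum, read 73.5, 74.4, 90.2 and 92.7 in WT P2 retinas and 1114, 1163, 1217 and 1332 in WT P10. In knockout retinas it read 58.7, 72.5, 72.7 and 73.7 at P2 and 111, 118, 118 and 122 at P10. Unlike Cnga1 it rose in knockout retinas as well, by 0.76 (adjusted p = 8.13e-08), against 3.87 in WT, which gave an interaction of -3.11 ± 0.13 (adjusted p = 5.49e-16).

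**Figure D2:**
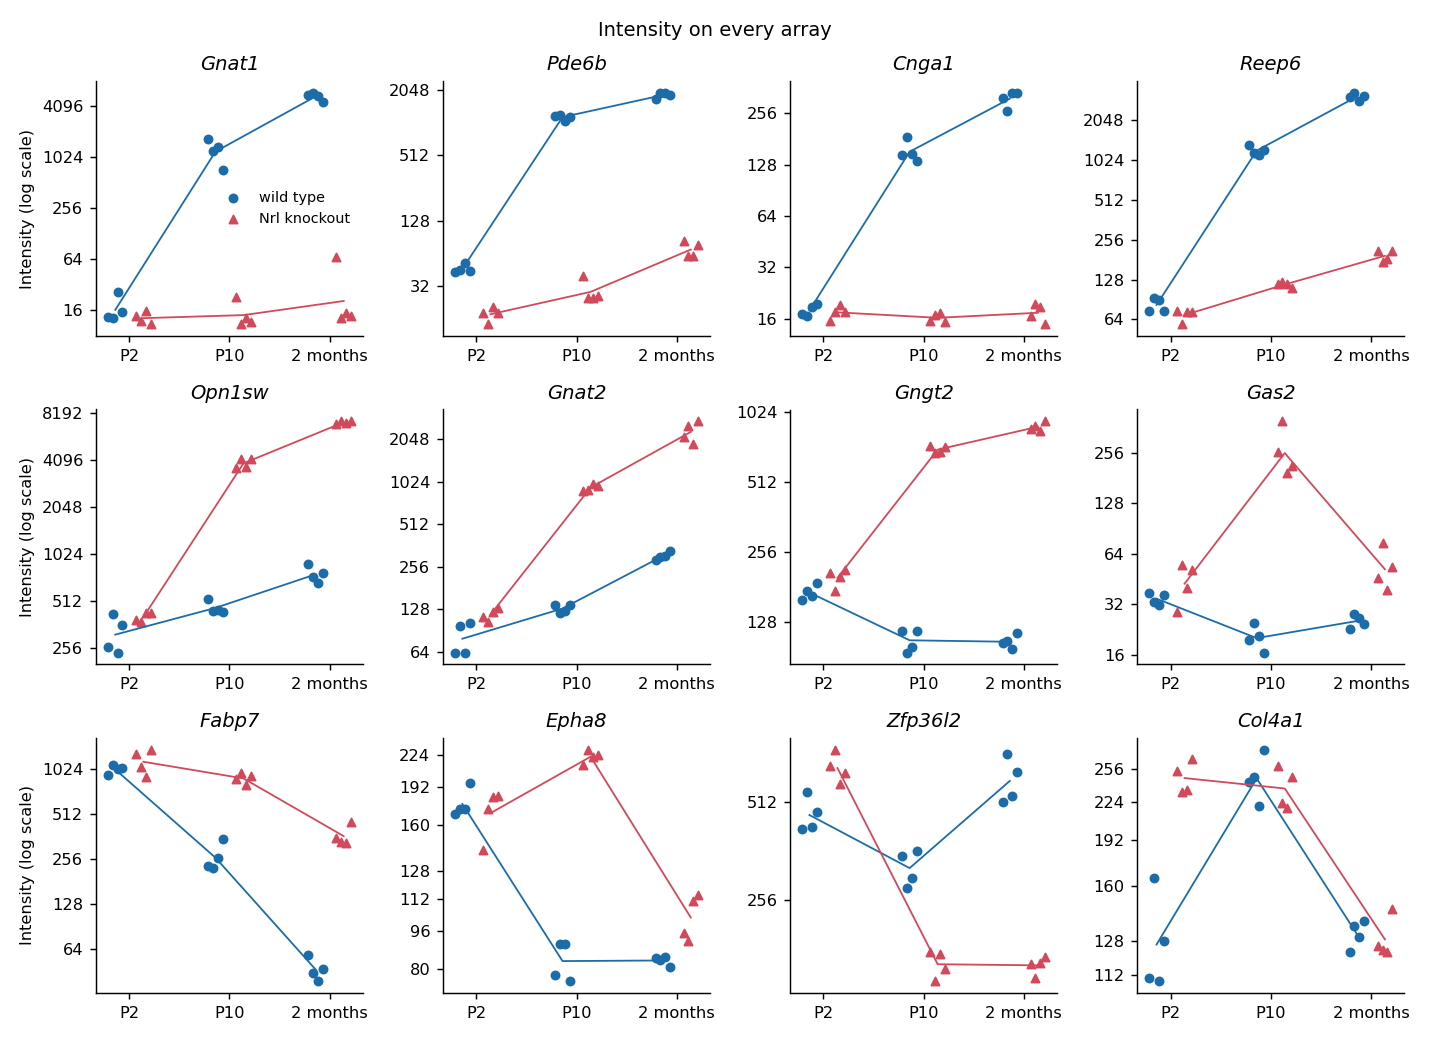
Intensity on a log scale of 12 genes on each of the 24 arrays, at P2, P10 and 2 months, with circles for wild type, triangles for Nrl knockout and lines through the means of log2 intensity. The first 4 panels show rod genes that climbed in wild type, the next 3 show cone genes and the eighth Gas2, which climbed in the knockout, and the last row shows Fabp7 and Epha8, which fell in wild type, Zfp36l2, whose genotypes crossed, and Col4a1, whose genotypes overlapped at P10 after standing apart at P2.

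Of 20 listed rod genes 13 were measured, and 9 of them were called lower and 0 higher, against 1.19% and 1.53% of all genes. Their median interaction was -1.12, beside 0.03 over all genes. The 9 were Gnat1, Pde6b, Cnga1, Reep6, Rcvrn, Nrl, Rom1, Pde6a and Pde6g. Nrl is the gene that was knocked out, so its call is not a result about the other rod genes. Pde6a, the alpha subunit of rod phosphodiesterase, rose from 62.6 ± 8.19 to 156 ± 29.7 in WT (SD, n = 4) and read 60.3 ± 16.9 and 72.4 ± 11.99 in knockout retinas, with an interaction of -1.01 ± 0.22. In RNA of whole retina, fewer cells of a type and less RNA per cell cannot be told apart.

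The 4 rod genes that did not pass were Sag, Prph2, Esrrb and Gnb1. Sag, rod arrestin, read 157, 255, 283 and 284 in WT P2 retinas and 3579, 3952, 4148 and 4470.4 in WT P10. Its knockout values were 26.7, 49.1, 52.9 and 53.4 at P2 and 930.0, 956, 959.8 and 1092 at P10. The genotypes were apart at both ages, both climbed, by 4.08 ± 0.17 in WT and 4.48 ± 0.17 in knockout retinas, and the interaction was 0.41 ± 0.25 (adjusted p = 0.643). Phosducin (Pdc), which binds transducin and belongs to the list of calcium and guanylate cyclase control, was likewise apart at both ages, with gaps of -2.20 at P2 and -1.96 at P10 and an interaction of 0.23 ± 0.15 (adjusted p = 0.662).

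Prph2, the disc rim partner of Rom1, varied widely in WT P10 retinas, where it read 181, 194, 416 and 465, and its interaction was -0.90 ± 0.47 (adjusted p = 0.529). Esrrb, an orphan nuclear receptor of rods, had an interaction of -0.28 ± 0.17 (adjusted p = 0.647). Gnb1, the beta subunit of rod transducin, was represented by a probe set that gave 0.38, but its probe sets disagreed. Another read 54.6 and 187 on average in WT retinas at P2 and P10 against 64.0 and 43.1 in knockout, with an interaction of -2.35 ± 0.17 (adjusted p = 1.30e-10), and the third gave 0.29. The count of 9 rod genes leaves that probe set out.

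Some photoreceptor genes climbed in both genotypes, more steeply in WT. Recoverin (Rcvrn), a calcium sensor of rods and cones, read 50.2, 59.9, 64.9 and 66.8 in WT P2 retinas and 928, 1076, 1126 and 1233 in WT P10. Knockout retinas gave 61.2, 63.5, 76.2 and 77.04 at P2 and 396, 452, 456 and 529.9 at P10. The P2 groups overlapped, both P10 groups lay above them and the knockout P10 arrays lay below the WT ones. The WT change was 4.17, the knockout change 2.72 and the interaction -1.45 ± 0.16 (adjusted p = 4.47e-07). Pde6g, the inhibitory gamma subunit of rod phosphodiesterase, rose by 4.23 in WT and 3.33 in knockout retinas, with an interaction of -0.90 ± 0.12.

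Rom1 is a protein of the outer segment disc rims. By its brightest probe set it was the 1 called gene whose gap had the same sign and grew by less than 2 times. It read 68.2, 68.6, 72.98 and 75.3 in WT P2 retinas and 809, 815, 825 and 858 in WT P10, against 23.5, 25.6, 34.2 and 35.4 and 144, 145, 166 and 169.7 in knockout retinas. The gap was -1.28 at P2 and -2.41 at P10, and the interaction -1.12 ± 0.16 (adjusted p = 1.77e-05). A second, dimmer Rom1 probe set was called the same way, at -2.07 ± 0.17 (adjusted p = 2.02e-09). Its change was 3.41 in WT and 1.34 in knockout retinas, which meets the wild type-driven rule. The same-direction and graded classes of Rom1 therefore hold for its brightest probe set alone. Ppp2r2b, a regulatory subunit of protein phosphatase 2A, and Abca4, the retinoid transporter of photoreceptor discs, also climbed in both genotypes, with interactions of -1.14 and -0.96. Gldc, of the glycine cleavage system, fell in both, by 1.30 in WT and 2.28 in knockout retinas on the log2 scale, with an interaction of -0.98 ± 0.14. Prominin 1 (Prom1), needed to build outer segment discs, read 1750.0 ± 139 in WT and 958 ± 33.1 in knockout retinas at P10 after near-equal P2 values of 305 ± 9.09 and 309 ± 27.7. Rom1 and Prom1 were the 2 of 8 measured genes of photoreceptor structure and cilium that were called, both lower, beside 1.19% of all genes.

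Further wild type-driven lower genes lay outside the rod list. Drd4, the dopamine D4 receptor, read 82.6, 93.8, 94.8 and 100.3 in WT P2 retinas and 293, 632, 742 and 849.8 in WT P10. Its knockout values were 62.9, 82.8, 83.8 and 90.7 and 124, 128, 129 and 131. The knockout P10 arrays were narrowly spread and lay below every WT P10 array, and the interaction was -1.96 ± 0.27 (adjusted p = 1.43e-05). Alpl, tissue-nonspecific alkaline phosphatase, rose from 68.1 ± 5.59 to 274 ± 29.3 in WT and read 70.2 ± 7.38 and 88.4 ± 8.09 in knockout retinas, with an interaction of -1.67 ± 0.13. Pla2r1, a phospholipase A2 receptor, gave -1.69 ± 0.14, and Pla2g7, which hydrolyses platelet-activating factor, gave -1.34 ± 0.14.

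Cacnb2, the beta subunit of voltage-gated calcium channels found at photoreceptor terminals, read 141 ± 27.7 in WT and 59.4 ± 6.82 in knockout retinas at P10, against 35.7 ± 5.17 and 39.01 ± 4.66 at P2. Its interaction was -1.36 ± 0.17 (adjusted p = 5.14e-06). It was the 1 of 12 measured terminal and ribbon synapse genes that was called, beside 2.71% of all genes. Ssu72, a phosphatase of the RNA polymerase II tail, and Nt5e, an ectonucleotidase on the surface of rod precursors, had interactions of -1.30 ± 0.15 and -1.27 ± 0.23. For these 7 genes all 4 knockout P10 values lay below all 4 WT P10 values, while the genotypes overlapped at P2. They were named for low interactions on the same arrays, which favours such a separation at P10. The share of all genes with this pattern was not counted.

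On the other side, Opn1sw, the short-wavelength cone opsin, climbed in the knockout. It read 376, 386, 426 and 426 in knockout P2 retinas and 3623, 3664, 4148 and 4173 in knockout P10. WT retinas gave 238, 259, 361 and 423 at P2 and 438, 443, 445 and 529 at P10. The knockout P10 arrays read 3623 or more and the other 12 of the 16 arrays 529 or less, and the P2 genotypes overlapped. The WT change was 0.57 ± 0.12, the knockout change 3.27 ± 0.12 and the interaction 2.70 ± 0.17 (adjusted p = 1.21e-11).

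The 3 cone transducin subunits also had higher interactions. Gnat2, the alpha subunit, read 62.96, 62.98, 96.9 and 103 in WT P2 retinas and 104, 113, 123 and 130.2 in knockout P2. At P10 the values were 121, 124, 137 and 138 in WT and 881, 903, 959 and 997 in knockout retinas. The knockout arrays lay above the WT arrays at both ages, with a gap that widened from 0.56 to 2.85 and an interaction of 2.28 ± 0.18 (adjusted p = 1.13e-09).

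Gngt2, the gamma subunit, fell in WT retinas while it rose in the knockout. It read 160.3, 166, 174 and 189 in WT P2 retinas and 94.6, 100.1, 118 and 118 in WT P10, and 174, 201, 208 and 215 in knockout P2 and 683, 694, 725 and 733 in knockout P10. The P10 genotypes were far apart after overlapping at P2, and the interaction was 2.52 ± 0.12 (adjusted p = 3.52e-15). Gnb3, the beta subunit, climbed in both genotypes, by 1.59 in WT and 2.50 in knockout retinas, with an interaction of 0.91 ± 0.21 (adjusted p = 0.0107). The rod and cone alpha subunits had interactions of -6.10 for Gnat1 and 2.28 for Gnat2.

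Guca1a encodes a guanylate cyclase activating protein, which restores cyclic GMP after a flash. It read 69.2, 69.9, 127 and 155 in WT P2 retinas and 226, 275, 315 and 328 in WT P10. Knockout retinas gave 68.8, 69.7, 95.1 and 98.96 at P2 and 1381, 1536, 1719 and 1825 at P10. Each P10 group lay above its P2 group and the knockout P10 arrays read 1381 or more, with an interaction of 2.77 ± 0.27 (adjusted p = 4.72e-08). Of the 7 measured genes of calcium and cyclase control, Guca1a was called higher and Rcvrn lower, beside 1.53% and 1.19% of all genes. The other 5 did not pass, namely Pdc, Gnb5, Rgs9, Gucy2e and Calm2, with interactions between -0.29 and 0.23.

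Of 16 listed cone genes 10 were measured, 6 were called higher and 1 lower, against 1.53% and 1.19% of all genes, and their median interaction was 1.11, beside 0.03 over all genes. Besides Opn1sw and the transducin subunits, Cnga3, the cone channel subunit, rose from 55.5 ± 7.94 to 136 ± 12.6 in knockout retinas and read 58.9 ± 7.74 and 58.1 ± 2.73 in WT, with an interaction of 1.31 ± 0.15. Rxrg, a retinoid receptor of cones, read 86.2, 86.8, 90.1 and 91.01 in knockout P2 retinas and 174, 175, 179 and 182 in knockout P10, while WT fell from 81.2, 87.3, 92.5 and 94.6 to 66.4, 67.6, 68.9 and 71.2. Its interaction was 1.38 ± 0.09 (adjusted p = 1.94e-11). Thrb, Gnb5 and Cpne3 did not pass, with interactions of -0.03, -0.29 and 0.02.

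Opn1mw, the medium-wavelength cone opsin, went the other way from the other called cone genes. It read 63.1, 66.8, 73.8 and 93.4 in WT P2 retinas and 121, 138, 156 and 211 in WT P10, against 61.6, 63.1, 69.8 and 84.9 and 69.9, 73.1, 76.96 and 99.3 in knockout retinas. The WT P10 arrays lay above the other 3 groups, and the interaction was -0.87 ± 0.24 (adjusted p = 0.0477). This call was close to the threshold and was lost on leaving out any 1 array other than the P2 replicates 1 of either genotype, knockout P10 replicate 1 and WT P10 replicate 4 (adjusted p from 0.0540 to 0.127 over the 12 losses). It was also lost under median centring (adjusted p = 0.0529), robust moderation (0.0725) and a pseudocount of 16 (0.0811). At 2 months Opn1mw averaged 454 ± 47.4 in WT and 630.3 ± 171 in knockout retinas (adjusted p = 0.139).

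**Figure D3:**
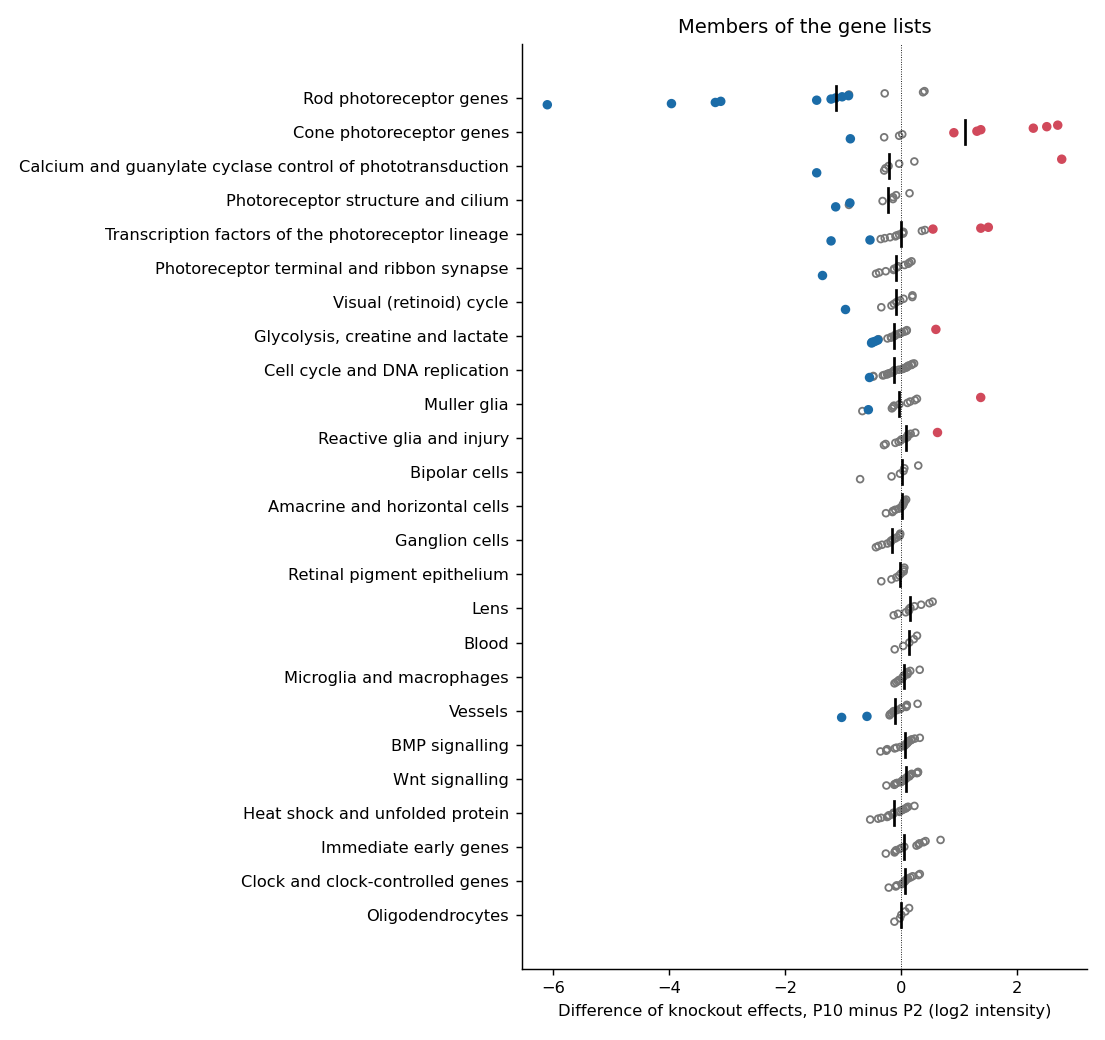
Interaction estimate of each measured gene (log2 intensity, horizontal axis) in 25 gene lists, with filled points for called genes (red higher, blue lower), open points for genes that did not pass and a bar at each list's median. The rod list spreads to the left with a median of -1.12, the cone list to the right with a median of 1.11, and most other lists sit close to 0.

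The called gene with the highest interaction was Gas2, a growth arrest-specific protein that binds the cytoskeleton. It read 31.5, 32.97, 36.6 and 37.5 in WT P2 retinas and 16.4, 19.5, 20.6 and 24.8 in WT P10. Knockout retinas gave 28.8, 40.2, 51.3 and 54.7 at P2 and 194, 214, 259 and 396 at P10. The P2 genotypes overlapped, WT fell and the knockout rose, and the interaction was 3.37 ± 0.28 (adjusted p = 1.46e-09). A second Gas2 probe set lay between 5.04 and 6.63 in all 4 group means and did not pass (0.39).

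Wwc1 (KIBRA), a scaffold protein of the Hippo pathway, rose from 134 ± 20.6 to 473 ± 69.1 in knockout retinas and fell from 118 ± 8.70 to 85.4 ± 9.49 in WT, with an interaction of 2.29 ± 0.18. Its second probe set was called the same way, at 1.03. Clca1, of the calcium-activated chloride channel regulators, read 14.9, 17.7, 18.02 and 23.6 in knockout P2 retinas and 77.8, 81.3, 82.1 and 102 in knockout P10, against 15.7, 16.8, 25.3 and 30.1 and 22.8, 22.9, 24.7 and 28.9 in WT. Its interaction was 2.00 ± 0.22, its second, dimmer probe set did not pass (0.12), and cross-hybridisation with related family members was not tested. Gzmm, the serine protease granzyme M, rose in both genotypes, by 0.75 in WT and 2.57 in knockout retinas, with an interaction of 1.82 ± 0.20.

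Sall3, a zinc finger transcription factor, read 89.6, 90.2, 93.4 and 99.2 in WT P2 retinas and 112, 112, 115 and 125 in knockout P2, then 71.8, 83.7, 85.8 and 87.9 and 262, 274, 286 and 347 at P10. The knockout arrays lay above the WT arrays at both ages and the interaction was 1.51 ± 0.12 (adjusted p = 1.13e-09). Tnfsf9, the 4-1BB ligand, rose from 90.2 ± 4.98 to 181 ± 27.2 in knockout retinas while WT fell from 86.96 ± 5.56 to 65.8 ± 5.24, an interaction of 1.40 ± 0.12.

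Apoe, the lipid carrier apolipoprotein E made largely by glia, read 504, 597, 597 and 649 in WT P2 retinas and 404, 506, 556 and 562 in knockout P2. At P10 the values were 1337, 1349, 1389 and 1434 in WT and 2972, 3019, 3029.5 and 3293 in knockout retinas. Both genotypes rose, the knockout further, and the interaction was 1.38 ± 0.13 (adjusted p = 3.15e-08). A second, dim Apoe probe set gave 0.15 and did not pass. Among same-direction genes with a steeper knockout rise were Abca1, which exports cholesterol to apolipoproteins (1.09 ± 0.18), Mylk, a myosin light chain kinase (0.98 ± 0.14), the secreted protease Htra1 (0.96 ± 0.12) and Hr, the corepressor hairless (0.68 ± 0.15).

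Promoters are shown for genes of both main classes, chosen with lower interactions among the wild type-driven and higher interactions among the knockout-driven genes. RefSeq promoters of assembly GRCm38.p6, the 250 bases before each gene's start, were searched on both strands for the core TGCTGA of the NRL response element (reverse TCAGCA) and for the CRX site TAATCC (reverse GGATTA), which cannot overlap each other. Among called genes with a promoter entry, which Gnat1 and Reep6 lacked, the lowest interactions were those of Pde6b, Cnga1 and Drd4. The highest were those of Gas2, Guca1a and Opn1sw. Drd4 and Gas2 held neither motif. The other 4 are given 5′ to 3′ on the gene's strand, with the matched motif in capitals, for Pde6b at chr5:108388123-108388372 (plus strand, NRL core 8 bases before the start), Cnga1 at chr5:72642753-72643002 (minus strand, CRX site 228 bases before the start), Guca1a at chr17:47400607-47400856 (minus strand, CRX site in reverse 57 bases before the start) and Opn1sw at chr6:29380514-29380763 (minus strand, NRL core in reverse 199 bases before the start).
Pde6b: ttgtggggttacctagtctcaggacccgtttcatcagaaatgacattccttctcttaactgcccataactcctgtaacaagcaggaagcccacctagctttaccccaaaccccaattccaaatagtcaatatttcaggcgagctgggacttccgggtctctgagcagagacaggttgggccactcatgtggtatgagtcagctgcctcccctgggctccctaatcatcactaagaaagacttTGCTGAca
Cnga1: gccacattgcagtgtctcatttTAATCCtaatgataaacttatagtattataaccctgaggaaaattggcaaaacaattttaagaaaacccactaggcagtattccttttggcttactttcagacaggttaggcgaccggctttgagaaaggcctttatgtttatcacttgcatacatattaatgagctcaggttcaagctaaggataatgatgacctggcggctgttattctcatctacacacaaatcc
Guca1a: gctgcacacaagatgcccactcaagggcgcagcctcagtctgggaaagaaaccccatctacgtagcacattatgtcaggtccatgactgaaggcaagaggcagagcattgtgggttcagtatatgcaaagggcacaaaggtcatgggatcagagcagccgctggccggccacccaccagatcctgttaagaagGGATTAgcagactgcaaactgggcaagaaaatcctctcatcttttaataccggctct
Opn1sw: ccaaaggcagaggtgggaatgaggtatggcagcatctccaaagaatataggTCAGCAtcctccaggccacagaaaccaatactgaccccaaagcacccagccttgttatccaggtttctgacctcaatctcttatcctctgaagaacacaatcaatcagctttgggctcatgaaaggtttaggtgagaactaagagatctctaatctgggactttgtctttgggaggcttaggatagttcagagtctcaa

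The NRL core was found in 15.8% and the CRX site in 6.37% of all 27025 promoters of this length. Among the measured genes, from which the classes are drawn, 6576 had a promoter entry, and the shares were 13.2% and 5.09%. Of 58 wild type-driven lower genes 49 had a promoter entry, of which 8 held the NRL core and 4 the CRX site. Of 68 knockout-driven higher genes 55 had one, of which 8 held the NRL core and 5 the CRX site. These matches describe letters in a 250-base window and are not binding sites.

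In wild type-driven higher genes the decline in WT retinas was the larger change. Fabp7, the brain lipid-binding protein of progenitors and glia, read 929, 1017, 1042 and 1088 in WT P2 retinas and 223, 231, 262 and 348 in WT P10. Knockout retinas gave 907, 1059.9, 1296 and 1382 at P2 and 796, 879, 914 and 964 at P10. The WT P10 arrays lay below the other 3 groups, and the interaction was 1.59 ± 0.20 (adjusted p = 2.59e-06). The smaller knockout decline was called as well, at -0.37 (adjusted p = 0.0402).

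Epha8, an ephrin receptor, read 168, 172, 173 and 196 in WT P2 retinas and 75.5, 77.8, 90.2 and 90.4 in WT P10, against 142, 172, 183 and 184 and 213, 222, 224 and 229.9 in knockout retinas. WT fell below all other arrays and the knockout rose slightly, and the interaction was 1.48 ± 0.12 (adjusted p = 2.06e-09). Jam3, a junctional adhesion molecule, and Mfng, a glycosyltransferase that modifies Notch, fell by 1.10 and 1.12 in WT on the log2 scale and changed by -0.12 and -0.18 in knockout retinas, which did not pass. Their interactions were 0.99 ± 0.12 and 0.94 ± 0.14.

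The 10 knockout-driven lower genes fell in the knockout. Zfp36l2, an RNA-binding protein that speeds mRNA decay, read 425, 429, 479 and 549 in WT P2 retinas and 582, 629.7, 663 and 743 in knockout P2. At P10 it read 279.9, 299.8, 350.4 and 362 in WT and 144, 157, 174 and 178 in knockout retinas. The knockout arrays lay above all WT arrays at P2 and below them at P10, both gaps were called (0.48 and -0.98), and the interaction was -1.46 ± 0.15 (adjusted p = 1.79e-07). Its 2 other probe sets, both dimmer, gave -0.29 and -0.26 and did not pass.

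Gadd45a, a stress-induced growth arrest gene, fell from 272 ± 18.1 to 99.4 ± 7.25 in knockout retinas and read 244 ± 13.8 and 214 ± 20.4 in WT, with an interaction of -1.26 ± 0.13. Pttg1 (securin) and Kpna2, an importin, had interactions of -0.94 ± 0.11 and -0.82 ± 0.16, and a second Pttg1 probe set gave -0.22 and did not pass. Gas5, a non-coding host of small nucleolar RNAs, gave -0.85 ± 0.20 (adjusted p = 0.0184), and its other probe sets gave 0.11 and -0.10. Its call was lost without knockout P10 replicate 1, 3 or 4 (adjusted p from 0.0526 to 0.0559), without both P2 arrays numbered 1 (adjusted p = 0.0852) and with the 16 arrays of P2 and P10 alone (adjusted p = 0.0548).

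Opposed genes numbered 12 higher and 4 lower. Cdr2, a cerebellar degeneration-related antigen, read 37.3, 37.7, 39.4 and 42.99 in WT P2 retinas and 72.4, 72.9, 79.7 and 88.3 in WT P10, against 31.9, 37.2, 37.3 and 42.6 and 21.1, 21.9, 24.4 and 25.4 in knockout retinas. WT rose and the knockout fell from overlapping P2 values, with an interaction of -1.67 ± 0.16 (adjusted p = 2.78e-08). The other 3 lower genes were Ankrd33b (-1.49 ± 0.30), Cd164, a sialomucin (-1.07 ± 0.16), and Macir (-0.56 ± 0.12). Ankrd33b was already lower in the knockout at P2, at 103 ± 34.8 against 207 ± 20.3.

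Ece1, the endothelin-converting enzyme, led the opposed higher genes. It read 332, 341, 350.4 and 365 in WT P2 retinas and 184, 206, 218 and 248 in WT P10, and 259, 276, 292 and 359 in knockout P2 and 493, 527, 671 and 723 in knockout P10. All knockout P10 arrays lay above all other arrays, and the interaction was 1.72 ± 0.17 (adjusted p = 4.95e-08). Cltb, a clathrin light chain, gave 1.33 ± 0.12, Slc38a10, an amino acid transporter, 0.87 ± 0.13, Zdhhc14, a palmitoyltransferase, 0.85 ± 0.16, and Srebf1, a regulator of lipid synthesis genes, 0.78 ± 0.11.

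Of 16 measured photoreceptor lineage transcription factors 3 were called higher (Sall3, Rxrg and Rax) and 2 lower (Nrl, the knocked-out gene, and Neurod1). The shares of all genes were 1.53% and 1.19%, and the median interaction of the 16 was 0.00. Rax, a homeobox gene of retinal progenitors, fell from 745 ± 33.1 to 406 ± 49.97 in WT and from 764 ± 50.6 to 608 ± 28.2 in knockout retinas, an interaction of 0.55 ± 0.12. Neurod1, a basic helix-loop-helix factor of photoreceptors, gave -0.53 ± 0.14 (adjusted p = 0.0398). Its call was lost on leaving out any 1 array other than knockout P2 replicates 1 and 3, WT P2 replicate 2, knockout P10 replicate 2 and WT P10 replicate 2 (adjusted p from 0.0554 to 0.0995 over the 11 losses). It was also lost with a block for the replicate number within each age (adjusted p = 0.0560) and without both P2 arrays numbered 1 (adjusted p = 0.0874). Crx, the partner of NRL, rose by 1.61 in WT and 1.26 in knockout retinas, and its interaction of -0.35 ± 0.11 did not pass (adjusted p = 0.12), although it did after quantile normalisation (-0.45, adjusted p = 0.0285). Six6, Prdm1 and Mef2c did not pass either, with interactions of 0.41, 0.36 and 0.04. Six6 passed with the filter on dim probe sets (adjusted p = 0.0490), array weights (0.0438), the 16 arrays alone (0.0266) and a replicate block over all ages (0.0368).

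Seen between genotypes, most of the called differences were larger at P10 than at P2. A gap was termed opened where its absolute size at P10 was at least 2 times that at P2, closed in the reverse case, and reversed where neither held and the sign changed. Of the 224 called genes 180 opened, 21 closed, 22 reversed and Rom1 was graded. Of all 8251 genes 142 were called between genotypes at P2 (1.72%) and 483 at P10 (5.85%). Among the called interactions 9 probe sets were called at both ages with the same sign and 3 with opposite signs.

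Col4a1, a basement membrane collagen, had the lowest interaction among the closed genes. It read 109, 110.5, 128 and 165 in WT P2 retinas and 233, 235, 253 and 266 in knockout P2. At P10 the values were 220.4, 243, 248 and 276 in WT and 219, 223, 247 and 258 in knockout retinas. The WT P2 arrays lay below the other 3 groups, which overlapped, and the interaction was -1.02 ± 0.14 (adjusted p = 2.36e-05). Its partner chain Col4a2 followed, with a gap of 0.43 at P2 and -0.16 at P10 and an interaction of -0.59 ± 0.09.

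These 2 genes were the 2 of 14 measured vessel markers that were called, both lower, beside 1.19% of all genes. The summed intensity of all 14 ran from 1135 to 1235 in WT P2 and from 1318 to 1418 in knockout P2 retinas, which did not overlap. At P10 it ran from 1734 to 1884 in WT and from 1642 to 1889 in knockout retinas. That of the other 12 markers ran from 879 to 937 in WT P2 retinas and from 874 to 967 in knockout P2. At P10 it ran from 1277 to 1362 in WT and from 1206 to 1404 in knockout retinas. In the sums of these 12 the genotypes overlapped at both ages, and leaving out the 2 called members favours such an overlap. Of the 12, 0 were called between genotypes at P2, beside 1.72% of all genes. Their gaps there ran from -0.25 to 0.30 with a median of -0.02. Ganglion cell markers, 0 of 12 called in the interaction, summed to 2657 to 2835 in WT P2 and 2999 to 3275 in knockout P2 retinas, and to overlapping ranges of 2768 to 3078 and 2883 to 3143 at P10. Of these 12 markers Gap43 and Atoh7 were called higher in the knockout at P2, with gaps of 0.41 and 0.30. Over all genes 1.72% were called at P2 in either direction. Other marker sums also stood apart. At P2 those of retinal pigment epithelium ran from 429 to 463 in WT and 379 to 422 in knockout retinas. At P10 bipolar sums ran from 1120 to 1149 and 1218.5 to 1342, and reactive glia sums from 1084 to 1192 and 1226 to 1292. By an exact permutation test over arrays, the vessel and ganglion differences at P2 did not pass (adjusted p = 0.0743 over 26 tests).

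Col5a2, a fibrillar collagen, and Dlx2, a homeobox gene, were dim closed genes with gaps of 0.86 and 0.71 at P2 and 0.10 and 0.11 at P10. Their interactions of -0.76 and -0.60 became -0.47 and -0.26 after 16 was added to each intensity, and both calls were kept. Pttg1 and D17H6S56E-5 were also closed. Reversed genes included Fezf2, a zinc finger transcription factor, which read 166, 171, 177 and 182 in WT P2 retinas and 110.0, 111, 118 and 119 in knockout P2, then 83.7, 90.00, 91.7 and 104 and 112, 113, 123 and 126 at P10. The knockout arrays lay below WT at P2 and above WT at P10, and the interaction was 0.96 ± 0.11 (adjusted p = 7.11e-07). Tmem230, a transmembrane protein, reversed the other way, from a gap of 0.44 to -0.40, and Oxct1, an enzyme of ketone body use, from 0.26 (not called) to -0.48.

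Among 19 measured genes of glycolysis, creatine and lactate 4 were called lower and 1 higher, against 1.19% and 1.53% of all genes, with a median interaction of -0.12. The glycolytic enzyme genes Pgk1 and Pgam1 gave -0.50 ± 0.11 and -0.45 ± 0.10. Both were slightly higher in the knockout at P2, at 1415 ± 95.2 against 1111 ± 66.4 for Pgk1 and 897 ± 86.7 against 724 ± 34.3 for Pgam1. Aldoa (-0.51 ± 0.13), Pkm (-0.40 ± 0.11) and the hexokinase gene Hk2 (0.60 ± 0.16) passed narrowly. Leaving out 1 array ended the call of Aldoa for 10 of the 16 arrays (adjusted p from 0.0563 to 0.106), all but knockout P2 replicates 1 and 2, WT P2 replicate 4, knockout P10 replicates 2 and 4 and WT P10 replicate 1. The Pkm call was lost for 12 arrays (adjusted p from 0.0506 to 0.114), all but knockout P2 replicate 1, WT P2 replicate 4, knockout P10 replicate 4 and WT P10 replicate 2. That of Hk2 was lost for 10 (adjusted p from 0.0576 to 0.0991), all but knockout P2 replicates 3 and 4, WT P2 replicates 1 and 3, knockout P10 replicate 1 and WT P10 replicate 4. Without both P2 arrays numbered 1 the adjusted p was 0.0810 for Aldoa, 0.0687 for Pkm and 0.0503 for Hk2. After quantile normalisation it was 0.0674 for Aldoa and 0.0871 for Pkm. Hk2 also missed the threshold under median centring (0.0787) and a pseudocount of 16 (0.0573), and Pkm with the 16 arrays alone (0.0639).

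Of 27 measured cell cycle genes Ccna2 (cyclin A2) was the 1 that was called, a share near the 2.71% of all genes. It fell in both genotypes, from 943 ± 91.6 to 227 ± 7.56 in WT and from 1018 ± 92.1 to 167 ± 8.92 in knockout retinas, with an interaction of -0.56 ± 0.11. The median change of the 27 was -1.87 in WT and -2.09 in knockout retinas. Abca4 was the 1 of 9 measured genes of the visual cycle that was called, beside 2.71% of all genes. Socs3, a cytokine-induced inhibitor of STAT signalling, was the 1 of 13 reactive glia genes, beside the same share. Socs3 gave 0.63 ± 0.13.

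Of 11 measured Müller glia markers 1 was called higher (Apoe) and 1 lower (Glul), with a median interaction of -0.03, beside 1.53% and 1.19% of all genes called. Their summed intensity ran from 3998 to 4411 in WT P2 and 3757 to 3995 in knockout P2 retinas, and from 4348 to 4928 and 6135 to 6368 at P10. Without Apoe and Glul the other 9 summed to 2795 to 3269.5 in WT and 2864 to 3026 in knockout P10 retinas, which overlapped. Leaving out the called members favours such an overlap. Glul, glutamine synthetase, gave -0.56 ± 0.15 (adjusted p = 0.0427), and its second probe set -0.06. The Glul call was lost on leaving out any 1 array other than knockout P2 replicate 2 and WT P10 replicates 2 and 4 (adjusted p from 0.0512 to 0.124). It was also lost with a block within each age (adjusted p = 0.0968) and without both P2 arrays numbered 1 (adjusted p = 0.116). Aqp4, the glial water channel, read 43.5, 66.4, 67.00 and 70.7 in WT and 33.8, 34.2, 36.6 and 42.8 in knockout P10 retinas, and its interaction of -0.67 ± 0.18 narrowly missed the threshold (adjusted p = 0.0517). Without WT P10 replicate 4 the estimate was -0.83 and passed (adjusted p = 0.00184), and it also passed without knockout P2 replicate 4 (0.0356) or knockout P10 replicate 2 (0.0304). It passed as well with array weights (0.0108), a replicate block over all ages (0.0200), dim probe sets removed (0.0354), quantile normalisation (0.0394), median centring (0.0461) and moderation that was robust (0.0476) or trended (0.0492).

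In the remaining lists 0 members were called, against 2.71% of all genes. These were bipolar cells (6 measured), amacrine and horizontal cells (13), ganglion cells (12), retinal pigment epithelium (8), lens (10), blood (5), microglia and macrophages (13), oligodendrocytes (5), BMP signalling (19), Wnt signalling (22), heat shock and unfolded protein (17), immediate early genes (13), clock genes (13) and sex-linked genes (4). At an unadjusted p under 0.05 from limma, 20 of their 157 distinct genes passed (12.7%), and 952 of all 8251 genes did (11.5%). Among them were Egr1, an immediate early transcription factor, with an interaction of 0.68, and Car8 of bipolar cells, with -0.70, both named after their values were seen.

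The 2 month arrays enter the interaction through the estimate of spread alone, and their values were read for the called genes. With the 16 arrays of P2 and P10 alone 265 probe sets were called, and 241 of these were among the 276. Of the 126 genes with a higher interaction 113 were also higher in knockout than in WT retinas at 2 months, and 85 were called higher there, beside 5.08% of all genes. Of the 98 with a lower interaction 85 were lower at 2 months and 61 were called lower, beside 3.94% of all genes. In the opposite direction 1 of the 126 and 2 of the 98 were called. Opened gaps kept their sign in 168 of 180 genes. Of the 21 closed genes 11 had the sign of the interaction and 3 were called that way.

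Single genes took different courses after P10. The gap of Gnat1 was -6.42 at P10 and -8.03 at 2 months, and that of Opn1sw 3.07 and 3.23. Clca1 read 389, 411, 474 and 514 in knockout retinas at 2 months against 23.97, 26.7, 28.6 and 31.97 in WT, a gap of 4.01 ± 0.16. Gas2 had a gap of 3.67 at P10 and 1.02 at 2 months, where knockout retinas read 39.1, 45.99, 53.7 and 74.2. Tnfsf9 read 65.3 ± 1.35 in knockout and 63.6 ± 1.59 in WT retinas at 2 months, and the difference did not pass (adjusted p = 0.964). Guca1a also did not pass there (adjusted p = 0.101), at 5018 ± 608 against 3475 ± 547. Whether these gaps changed between P10 and 2 months was not tested here.

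**Figure D4:**
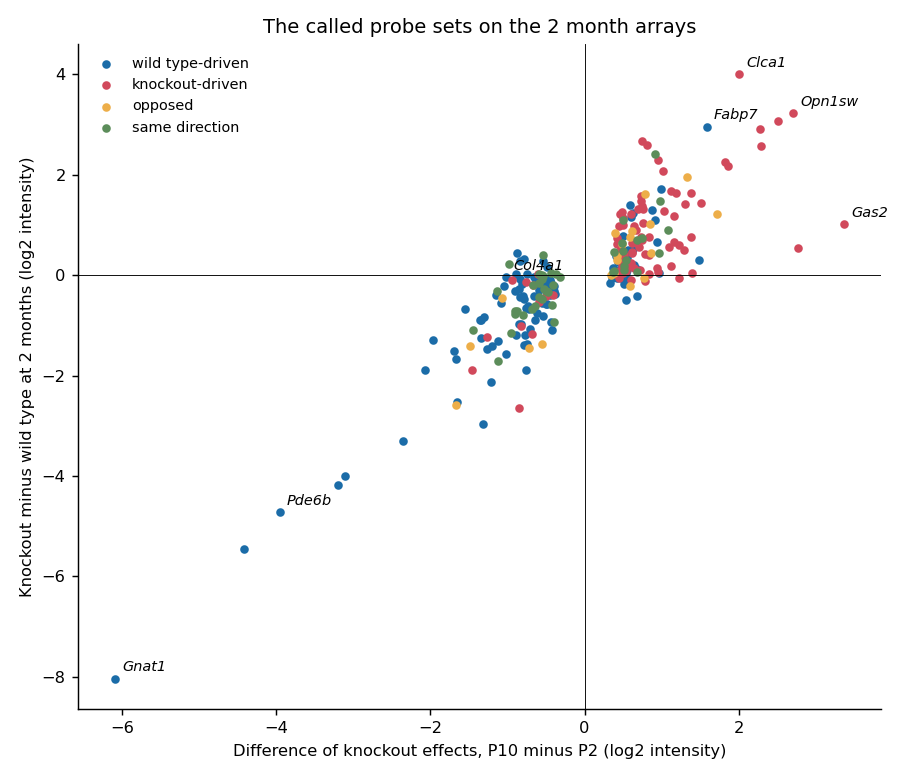
Interaction estimate between P2 and P10 (horizontal axis) against the knockout minus wild-type difference at 2 months (vertical axis), both in log2 intensity, for the 276 called probe sets coloured by driver class. Gnat1 and Pde6b lie at the lower left, Opn1sw and Clca1 at the upper right, Gas2 is far right with a smaller difference at 2 months, and Col4a1 lies near 0 on the vertical axis.

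Of the 224 called genes 59 had another probe set, of which 13 had 1 called in the same direction and 0 in the opposite direction. In 48 of the 59 all other probe sets had the sign of the called one.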

How the data were processed

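Each array's probe set intensity, on a linear scale, was produced by the authors with RMA, as the submitters' processing notes name it. Its version and the set of arrays normalised jointly are not given in the sources used here. From 12488 probe sets, 66 array controls were removed. One gene symbol was attached to 10833 probe sets, several to 396 and none to 1193, from the platform annotation matched by Entrez identifier to GRCm38.p6, which gave 8251 genes.

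Intensities were log2 transformed, and 6 group means were fitted to all 24 arrays with limma 3.58.1 in R 4.3.3 (lmFit and eBayes, 18 residual degrees of freedom). The interaction, its component changes and the 2 month difference were contrasts of that fit. P-values are two-sided and adjusted within a contrast. Errors are standard errors for log2 values and SDs (n = 4) for intensities, and array values are listed from lowest to highest. Each array is 1 hybridisation, so the number of arrays limits the precision.

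The genes named were Nrl, the 15 highest and 15 lowest called interactions, the 5 largest in each driver class and direction and in each gap class, up to 4 members of each list, and all measured rod, cone, cyclase and lineage factor genes. Exceptions are marked in the text, and some members meeting the rule are given by counts. The members and the 26 gene lists were chosen with earlier results of these data known. On simulated data for this interaction, run on 12422 probe sets with 50 changed at each size, the fit recovered 66%, 98%, 98% and 100% at log2 interactions of 0.5, 1, 1.5 and 2, with 7 false calls.

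Alternatives were quantile normalisation, median centring, a filter on dim probe sets (brightest group mean of at least 50), trended or robust moderation, array weights, a pseudocount of 16, the 16 arrays alone, stricter thresholds, other class ratios, replicate blocks and leaving out each array. Leaving out both P2 arrays numbered 1, and summing the vessel and Müller markers without their called members, were chosen after the data were seen. The plots were made with matplotlib 3.10.9 (Python 3.11.15).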

Additional observations from a re-analysis of the deposited data

Results flagged for a closer look

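Of 368 groups of 4 array values checked among the genes reported, 24 held 1 array far from the other 3, and chance sets apart about 1 in 20. In rod and cone genes these were Nrl in WT P2 replicate 1 (61.5, others 59.9 to 60.1), Pde6b in knockout P10 replicate 1 (39.5, others 24.9 to 26.0), Pde6g in WT P10 replicate 1 (3979), Reep6 in knockout P2 replicate 2 (58.7), Sag in knockout P2 replicate 2 (26.7) and Opn1sw in WT P10 replicate 1 (529). Among the other photoreceptor genes Gucy2e stood apart in WT P10 replicate 4 (79.3), Calm2 in knockout P2 replicate 1 (58.6), Prdm1 in WT P10 replicate 4 (157), and Mef2c in knockout P2 replicate 1 (15.4) and knockout P10 replicate 4 (25.4).

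Further single arrays were Pla2g7 in WT P10 replicate 3 (133), Nt5e in knockout P2 replicate 1 (51.5), Gadd45a in knockout P2 replicate 1 (298.6), Gas5 in knockout P10 replicate 2 (389.5), Cd164 in knockout P10 replicate 3 (91.9), Wwc1 in WT P10 replicate 2 (71.3), Slc38a10 in WT P2 replicate 4 (312), Htra1 in WT P10 replicate 4 (457) and Hr in knockout P2 replicate 3 (132.5) and knockout P10 replicate 1 (223). Glial genes added Aqp4 in knockout P2 replicate 4 (14.4) and WT P10 replicate 4 (43.5, others 66.4 to 70.7), and Socs3 in knockout P2 replicate 4 (107). Knockout P2 replicate 1 and WT P10 replicate 4 held 4 of the 24 each.

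The knockout effect differed between P2 and P10 in 276 probe sets by the interaction test. In 3 genes it was called at both ages with opposite signs, with interactions of -1.46 for Zfp36l2, 0.96 for Fezf2 and -0.84 for Tmem230.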

How the results depend on the processing

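The interaction called 276 probe sets, of which 43.1% were wild type-driven (95% Wilson interval 37.4 to 49.0), 33.3% knockout-driven (28.0 to 39.1) and 78.6% opened gaps (73.4 to 83.1). Array weights gave 486 calls (244 higher, 242 lower), 27.0% knockout-driven and 64.4% opened. At an adjusted p under 0.01 there were 174 calls (87 higher) with 86.8% opened, and at 2-fold or more 64 (30 higher, 34 lower) with 42.2% knockout-driven and 96.9% opened. A class ratio of 1.5 gave 51.4% wild type-driven and 39.5% knockout-driven, and a ratio of 3 gave 29.0%, 23.9% and 70.3% opened. Without both P2 arrays numbered 1, 27.3% were knockout-driven. Quantile normalisation gave 358 calls (174 higher, 184 lower) and median centring 249 (108 higher, 141 lower). The causes were not tested.

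Leaving out 1 array gave 216 to 309 calls, 107 to 186 higher, 107 to 150 lower, 39.8% to 45.4% wild type-driven, 29.8% to 36.6% knockout-driven and 66.0% to 83.8% opened. Same-age arrays of one number had correlated deviations between -0.18 and 0.33, over 0.1 in 3 of 8 pairs. Across P2 and P10 they were over 0.1 in 4 of 4 knockout pairs (0.18 to 0.37) and 2 of 4 WT pairs (-0.25 to 0.27), and 11 of 16 arrays lay closest to their own number. As not every pair exceeded 0.1, the numbers were not taken to pair the samples. A replicate block across the 3 ages gave 432 calls (233 higher, 199 lower) with 69.4% opened, and a block within each age gave 302.

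Of the 224 called genes, 75 were checked singly. Of these 75, 68 kept their call, at an adjusted p under 0.05, in every alternative fit that held their probe set. The other 7 (Aldoa, Gas5, Glul, Hk2, Neurod1, Opn1mw and Pkm) lost it under at least 1. Many of the 75 were named for the largest interactions, which favours keeping a call. Of all 276 called probe sets, each fit that left out 1 array kept between 215 and 249. The stricter thresholds and the averaging of probe sets were not applied to the calls of single genes, and the filter removed dim ones. The direction reversed in 0 cases. Of the genes named as missing the threshold, Aqp4, Crx and Six6 passed it under at least 1. Their values stand beside each gene. Averaging all probe sets of a gene moved the list medians of heat shock (-0.03) and immediate early genes (0.18) by more than the spread between arrays.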
